A study of Mus musculus with 52 samples.

Results

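Glycolysis splits glucose into pyruvate, and in cells that make lactate the pyruvate is reduced and exported. The 10 genes described here cover the lower steps of that route and both ends of it: the enzyme genes Aldoa, Tpi1, Gapdh, Pgk1, Pgam1, Eno1, Pkm and Ldha, the glucose transporter gene Slc2a1 and the lactate exporter gene Slc16a3. They were listed by symbol, and all 10 were among the 49466 genes counted. They were selected on higher values with dexamethasone in earlier results of the same libraries, so the dexamethasone values below are a description with no test. Cell class and the likeness of sister cells were not used to choose them.

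The cells were daughters of single burst-forming unit-erythroid (BFU-E) founders, early progenitors of the red cell lineage, sorted from fetal liver of C57/Bl6J mouse embryos at day 14.5. The sort removed cells with mature lineage markers, among them CD11b, Ly-6G and CD16/32. A founder was kept alone in a well for 16 hours, in medium with 100 nM dexamethasone (Dex, 13 pairs) or in the same medium without it (NoDex, 13 pairs), and its 2 daughters were sequenced separately. The labels name no animal, so the founder with its well is the replicate, and founders may share an embryo or litter.

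In 3 NoDex pairs at least 1 library held fewer than 100000 counts. The other 23 pairs, 13 Dex and 10 NoDex, are called deeper pairs. Their 46 libraries held 210383 to 5606500 counts. Values are in CPM, the usual scaling of counts to the total of a library, or of the summed counts of a pair. Markers split the cells. In 5 pairs (Dex 6, 7 and 10, NoDex 9 and 10) both daughters had a higher mean of 12 granulocyte-monocyte markers than of 14 erythroid markers, and these are called myeloid-like. The other 18 deeper pairs are called erythroid-like. Mpo, the neutrophil myeloperoxidase gene, was at 4621 to 23921 CPM in myeloid-like libraries, against 0 to 5633 CPM in erythroid-like ones. The markers of these 5 pairs go against the label BFU-E. Cebpe, a late granulocyte factor gene, was at 0 in all 46 libraries, so it does not tell the classes apart. Both daughters of Dex pair 10 lay within 1 log2 unit of the class boundary. 1 library stands apart. Dex pair 12 cell 1, with 210383 counts and 3886 genes the shallowest and poorest of the 46, had the highest Ldha (10585 CPM) and Pkm (8394 CPM) and the lowest Aldoa (318 CPM), Gapdh (23.8 CPM) and Eno1 (33.3 CPM). Its Mpo was at 5633 CPM and its Gata1, an erythroid transcription factor gene, at 14.3 CPM. Results between sister cells are given with and without that pair.

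Aldolase A (Aldoa) cleaves fructose bisphosphate, and triosephosphate isomerase (Tpi1) interconverts the resulting triose phosphates. Gapdh and Pgk1 oxidise glyceraldehyde phosphate and yield ATP, Pgam1 and Eno1 rearrange phosphoglycerate to phosphoenolpyruvate, and pyruvate kinase (Pkm) yields pyruvate and ATP. Lactate dehydrogenase A (Ldha) then makes lactate. Mature red cells have no mitochondria and live on this pathway, and the erythroid lineage replaces Pkm by Pklr, the pyruvate kinase gene of red cells and liver. Many of these genes are targets of the hypoxia-inducible factors (HIF), whose site can hold the letters ACGTG.

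Promoter windows of the genes the results turn on are shown first, as the 250 bases before the RefSeq start (GRCm38.p6, gene strand). Where RefSeq lists several starts, the window with the most matches is printed. Capitals mark ACGTG, or CACGT on the other strand, in the first 4 windows. In the Pklr window they mark AGATAA, the core read by GATA factors, which was also searched as TTATCT. The windows lie at chr7:46845554-46845803 (+) for Ldha, chr11:120948817-120949066 (+) for Slc16a3, chr19:41911621-41911870 (+) for Pgam1, chr9:59656977-59657226 (+) for Pkm and chr3:89135892-89136141 (+) for Pklr.
Ldha: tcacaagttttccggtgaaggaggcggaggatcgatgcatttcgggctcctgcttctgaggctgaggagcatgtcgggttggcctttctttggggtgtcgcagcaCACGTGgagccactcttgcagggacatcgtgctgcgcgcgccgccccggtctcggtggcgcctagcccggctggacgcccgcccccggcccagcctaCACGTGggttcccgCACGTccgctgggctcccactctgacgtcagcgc
Slc16a3: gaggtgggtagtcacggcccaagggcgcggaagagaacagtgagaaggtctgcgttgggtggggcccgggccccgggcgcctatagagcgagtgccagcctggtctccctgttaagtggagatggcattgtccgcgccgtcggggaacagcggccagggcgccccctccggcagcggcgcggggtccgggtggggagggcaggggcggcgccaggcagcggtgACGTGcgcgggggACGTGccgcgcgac
Pgam1: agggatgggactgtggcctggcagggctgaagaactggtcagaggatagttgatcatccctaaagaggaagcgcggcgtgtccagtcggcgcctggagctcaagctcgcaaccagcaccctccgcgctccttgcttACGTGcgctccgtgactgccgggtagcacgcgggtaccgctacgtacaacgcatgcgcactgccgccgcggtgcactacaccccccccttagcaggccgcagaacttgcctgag
Pkm: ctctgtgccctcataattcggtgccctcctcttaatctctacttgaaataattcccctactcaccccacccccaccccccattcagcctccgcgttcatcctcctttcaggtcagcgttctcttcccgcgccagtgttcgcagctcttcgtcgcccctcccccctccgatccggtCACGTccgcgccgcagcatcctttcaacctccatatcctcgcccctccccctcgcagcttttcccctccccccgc
Pklr: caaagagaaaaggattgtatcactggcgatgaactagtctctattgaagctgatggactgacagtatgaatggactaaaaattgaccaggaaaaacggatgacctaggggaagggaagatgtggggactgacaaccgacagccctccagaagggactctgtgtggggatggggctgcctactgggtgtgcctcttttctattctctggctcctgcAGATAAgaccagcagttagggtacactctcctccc

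All 10 members matched RefSeq promoters, with 16 windows in all. ACGTG was found in 8 of the 16 windows, belonging to 7 members: Ldha, Slc16a3, Slc2a1, Pgam1, Pkm, Pgk1 and Aldoa. Eno1, Tpi1 and Gapdh had no match in these windows. Only these letters were searched, so other forms of the HIF site were not looked for. Among all 32851 promoter windows of the same length, 16.6% held it, and 18.5% of the 27025 genes had it in at least 1 window. Ldha had 5 matches in 3 runs, since the palindrome CACGTG reads as a match on each strand. Slc16a3 had 2, starting 27 and 14 bases before the start. AGATAA was in no member window and in 1 of the 2 Pklr windows, and 9.99% of all windows held it. A match is a description of the letters and says nothing of binding in these cells.

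Levels were compared between genes as CPM per kb of the principal GENCODE M21 transcript, averaged over the 23 deeper pairs. Aldoa (chromosome 7, 126795234 to 126800751, minus strand) and Ldha (chromosome 7, 46841475 to 46855627, plus strand) were the most abundant, at 1406 ± 345 and 1397 ± 292 CPM per kb (SD, n = 23 pairs each). Aldoa was above Ldha in 8 of 23 pairs, so their order is within the spread. Ldha was above Eno1 (chromosome 4, 150236721 to 150248879, plus strand; 531 ± 167 CPM per kb) in all 23 pairs. Eno1, Tpi1 (chromosome 6, 124810586 to 124814296, minus strand; 491 ± 154 CPM per kb), Pkm (chromosome 9, 59656368 to 59679375, plus strand; 383 ± 256 CPM per kb) and Gapdh (chromosome 6, 125161715 to 125166467, minus strand; 275 ± 79.1 CPM per kb) followed. Each neighbour in that run was above the next in 12, 17 and 14 of 23 pairs, and each mean difference was below the SD of the difference.

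Below a step from Gapdh came the scarcer members. Gapdh was above Pgk1 (chromosome X, 106187100 to 106203699, plus strand; 69.2 ± 43.2 CPM per kb) in 22 of 23 pairs. Pgam1 (chromosome 19, 41911923 to 41918660, plus strand; 31.1 ± 28.9 CPM per kb), Slc2a1 (chromosome 4, 119108711 to 119137983, plus strand; 28.5 ± 29.3 CPM per kb) and Slc16a3 (chromosome 11, 120948480 to 120960868, plus strand; 24.8 ± 26.1 CPM per kb) were lowest. Their order was within their spread. Together the 10 genes took 0.511% to 1.18% of the counts of a pair.

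The abundant enzymes were present in every library, and both transporters were present or absent from library to library. Aldoa, Ldha, Eno1, Tpi1 and Gapdh reached 10 CPM in all 46 libraries, Pkm in 45, Pgk1 in 43 and Pgam1 in 42. Slc16a3 reached it in 26 libraries and Slc2a1 in 21, with no count at all in 5 and 14 libraries. Gapdh has 177 near-identical copies in the annotation, 168 of them pseudogenes, and the sources used here do not say how shared reads were counted. Those copies held 17.2% of the summed level, so the Gapdh level is uncertain. For Eno1 the share was 3.24%, mostly Eno1b, and for the other members it was at most 1.27%.

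**Figure D1:**
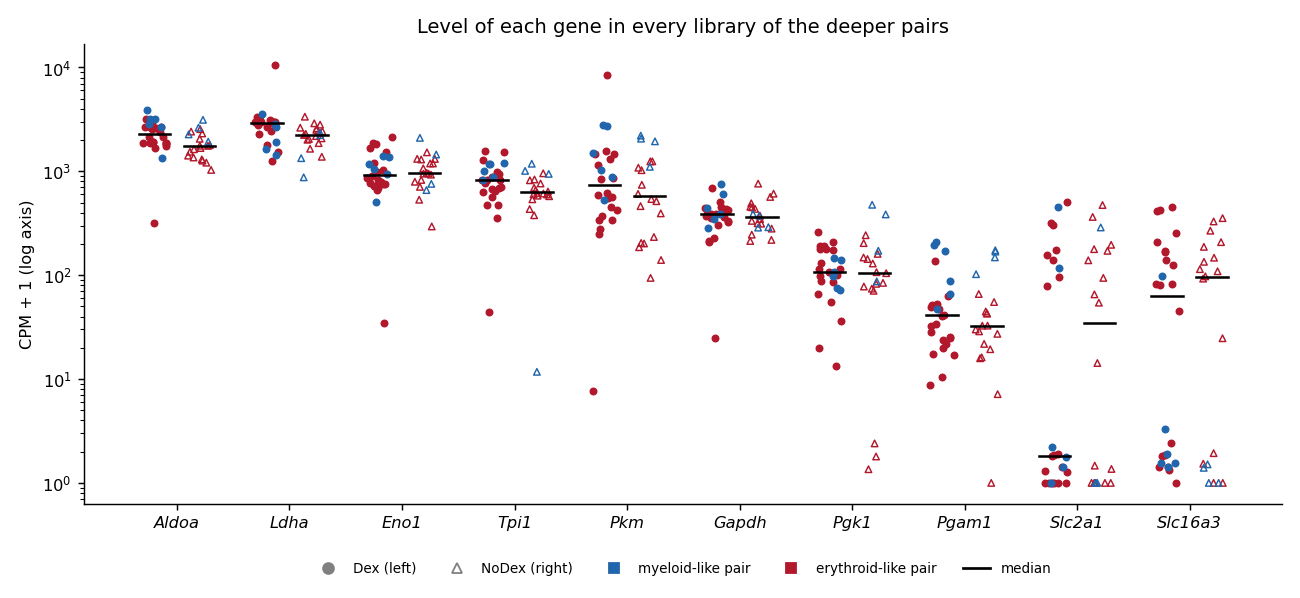
CPM + 1 on a log axis in each of the 46 libraries of the deeper pairs, Dex (filled circles, left) and NoDex (open triangles, right) for each gene, in order of CPM per kb; blue marks myeloid-like and red erythroid-like pairs and black lines medians. Slc2a1 and Slc16a3 fall into libraries near 0 and libraries well above 10 CPM, and Dex pair 12 cell 1 is the top Ldha point at 10585 CPM.

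Ldha, Aldoa, Tpi1 and Pkm had a positive log2 fold change of Dex over NoDex in each of the 34 alternatives run. The genes were chosen on this comparison and the alternatives use the same libraries, so the constant sign is a description and no support. Ldha was at 1850, 2907 and 3238 CPM in Dex pairs (lowest, median and highest of 13), against 1442, 2332 and 2751 CPM in NoDex pairs (of 10). The ranges overlap, and 8 of the 13 Dex pairs lay above every NoDex pair. Means were 2702 ± 432 CPM with Dex and 2160 ± 467 CPM without it (SD, n = 13 and 10 pairs), a fitted log2 fold change of 0.36 ± 0.14 (SE). Aldoa was at 1533, 2318 and 3322 CPM in Dex pairs, against 1244, 1788 and 2425 CPM in NoDex pairs. In 4 Dex pairs it was above all NoDex pairs, and its log2 fold change was 0.37 ± 0.19 (SE). Tpi1 was at 493.1, 837 and 1314 CPM with Dex, against 446, 652 and 1091 CPM without it, at a log2 fold change of 0.47 ± 0.22 (SE). For Tpi1, 11 of 13 Dex pairs were above the NoDex median.

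The next enzymes of the route differed less than their spread. Eno1 had a median of 924 CPM in Dex pairs and 1054 CPM in NoDex pairs, with a log2 fold change of 0.11 ± 0.23 (SE), so the median and the fitted change differ in sign. Gapdh had medians of 368 CPM with Dex and 374 CPM without it (0.13 ± 0.23, SE). Pkm was at 901 CPM with Dex and 559 CPM without it (0.32 ± 0.46, SE). Pgam1 was at 38.2 and 32.4 CPM in Dex and NoDex pairs (0.10 ± 0.67, SE). Pgk1 was at 119 CPM with Dex and 116 CPM without it, but its log2 fold change was -0.31 ± 0.50 (SE). NoDex pair 9, a myeloid-like pair at 424 CPM, weighs on that value, which was 0.25 without that pair. The transporters had medians of 93.7 and 101 CPM for Slc16a3 in Dex and NoDex pairs (0.30 ± 1.16, SE) and 60.2 and 91.1 CPM for Slc2a1 (-0.09 ± 1.17, SE).

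Across all genes edgeR's quasi-likelihood test with Benjamini-Hochberg adjustment called 0 of 7190, a background of 0%, so no member was called either. At an unadjusted p under 0.05 edgeR had 71 genes, DESeq2 173 and limma 304, and the last 2 tools also called 0. Of the 10 members, 8 had a positive log2 fold change, with a median of 0.22 against 0.02 over all 7190 genes. Since the members were chosen on this comparison, the higher median is a description too. With all 26 pairs, where edgeR called 0 of 6429 genes, 9 of 10 were positive and the median was 0.47, beside 0.06 for all genes. Ldha was then at 0.49 ± 0.14 (SE), Aldoa at 0.53 ± 0.19 and Tpi1 at 0.53 ± 0.21. NoDex means with all 13 pairs were 2011 ± 506 CPM for Ldha and 1669 ± 458 CPM for Aldoa (SD). The 3 added pairs are all NoDex, and each has at least 1 library under 100000 counts. NoDex pair 12 is not shallow as a sum: its cell 1 held 4204860 counts, with Ldha at 1398 CPM and Aldoa at 803 CPM. The part of the added pairs in the larger values was not tested.

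Plate columns and cell class moved single members. The library labels hold a number and a letter, read here as the column and row of a plate, but they name no plate. Each number also goes with its own index sequence, so position and index cannot be told apart. By that reading Dex and NoDex pairs lie in different columns apart from column 6, so treatment and column cannot be told apart column by column. In columns 1 to 4 alone Ldha was at 0.22 and in columns 5 to 7 alone at 0.64, while Aldoa was at 0.54 and 0.23, and Tpi1 at 0.52 and 0.49. Pgk1 changed sign, at 0.73 in columns 1 to 4 and -1.20 in columns 5 to 7, and Slc16a3 was not among the genes fitted in columns 5 to 7 alone. In erythroid-like pairs alone Ldha was at 2044, 2917 and 3090 CPM with Dex (n = 10), against 1476, 2432 and 2751 CPM without it (n = 8), and Pgk1 turned to 0.31. With limma on mean log2(CPM + 1), where all genes had a median of -0.15, Eno1 (-0.11), Gapdh (-0.09) and Slc16a3 (-0.16) turned negative and Pgk1 (0.47) positive. Ldha (0.34), Aldoa (0.27) and Tpi1 (0.41) stayed positive there.

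**Figure D2:**
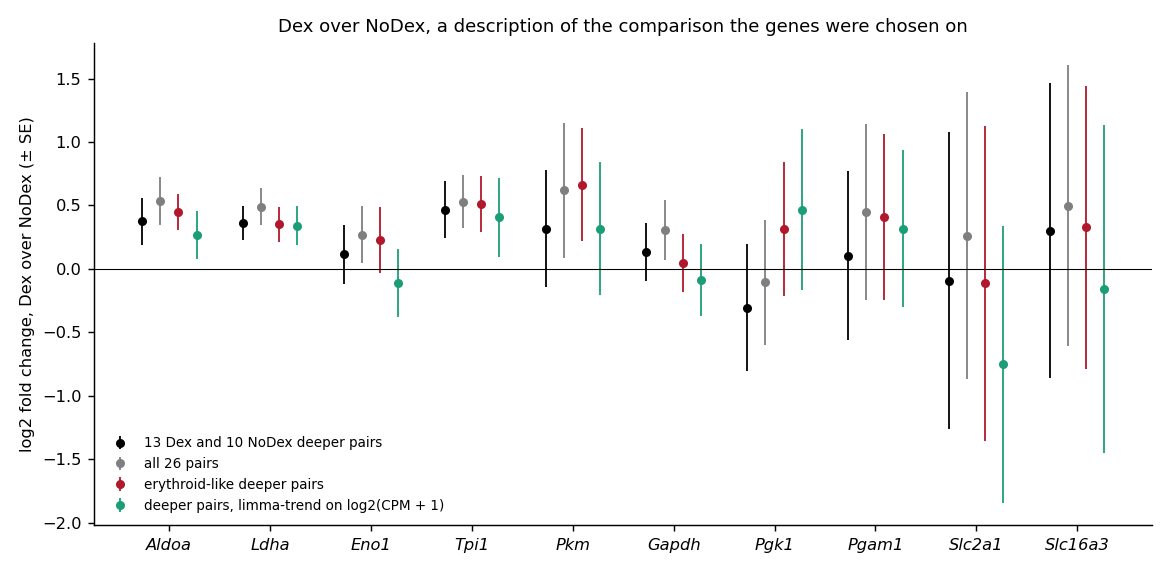
Log2 fold change of Dex over NoDex with its standard error for each gene, from the 23 deeper pairs, all 26 pairs, erythroid-like deeper pairs and limma on log2(CPM + 1) of deeper pairs. Ldha, Aldoa and Tpi1 lie above 0 in all 4, with Ldha at 0.36 in the deeper pairs, while Slc2a1, Slc16a3 and Pgk1 change sign or have errors wider than their values.

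By the class of a pair, a measure not used to choose the genes, edgeR called 3 enzymes, each with overlapping ranges. Aldoa, Pgam1 and Pkm rose in myeloid-like against erythroid-like pairs, and no member fell past the threshold. Pgam1 was at 166, 51.4, 181, 130 and 157 CPM in the 5 myeloid-like pairs (Dex 6, 7 and 10, NoDex 9 and 10), against 2.81, 32.4 and 73.6 CPM in erythroid-like pairs (lowest, median and highest of 18). It was above every erythroid-like pair in 4 of 5, with Dex pair 7 inside their range. The means were 137 ± 51.5 CPM and 32.3 ± 15.9 CPM in myeloid-like and erythroid-like pairs (SD, n = 5 and 18), a log2 fold change of 2.33 ± 0.53 (SE, edgeR adjusted p = 0.0138). Pkm was at 2332, 901, 1846, 1521 and 2043 CPM in the same myeloid-like pairs, against 145, 619 and 1442 CPM in erythroid-like pairs. Again Dex pair 7 was the exception to 4 pairs above the whole erythroid-like range. The log2 fold change of Pkm was 1.54 ± 0.43 (SE), but its adjusted p of 0.0497 lay at the threshold and ran from 0.00594 to 0.154 over the alternatives. Aldoa was at 2995, 2694, 3322, 2425 and 2389 CPM in myeloid-like pairs, against 1244, 1916 and 2751 CPM in erythroid-like pairs. All 5 were above the erythroid-like median and 2 above its highest pair (log2 fold change 0.74 ± 0.15, SE, edgeR adjusted p = 0.00461).

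Read against all genes, 3 of 10 members were called, where edgeR called 2.71% of 9112 genes and 1.61% as higher and 1.1% as lower. The median log2 fold change was 0.44 for the members and -0.01 for all genes tested. Pgam1 was called under each of the 14 alternatives, at adjusted p of at most 0.0455. Aldoa was lost with limma (adjusted p = 0.153), and Pkm was lost in 9 of them, including limma (0.0975), other size factors (0.0586) and the plate columns as covariate (0.0648). DESeq2 called 14.1% of genes and limma 6.33%. Without Dex pair 10, which lay nearest to the class boundary, Aldoa was called at adjusted p = 0.0168 in edgeR and Pgam1 at 0.0455. Pkm was then at 0.0850.

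The other members differed less. Tpi1 had a log2 fold change of 0.53 ± 0.24 (SE, adjusted p = 0.230), Pgk1 of 0.91 ± 0.56 (0.461), Gapdh of 0.35 ± 0.24 (0.532), Eno1 of 0.32 ± 0.27 (0.640), Ldha of -0.10 ± 0.15 (0.847) and Slc2a1 of 0.15 ± 1.43 (0.983), all by edgeR. Ldha, at 2222, 1850, 3238, 1725 and 1442 CPM in the myeloid-like pairs, spanned the erythroid-like range of 1476 to 3090 CPM. Slc16a3 encodes the monocarboxylate transporter that exports lactate from glycolytic cells. It was at 34.8, 0.992, 0.721, 0.173 and 0.194 CPM in the 5 myeloid-like pairs, against 0, 121 and 361 CPM in erythroid-like pairs. Since some erythroid-like pairs were also near 0, the ranges overlap, and the log2 fold change of -4.43 ± 1.77 (SE) missed the threshold (edgeR adjusted p = 0.172). The 34.8 CPM of Dex pair 6 came from 1 daughter at 97.4 CPM, and without that pair the gene was called as lower (adjusted p = 0.0479), at counts so low that the fitted fold change depends on the prior count and is not given. DESeq2 called it as well (adjusted p = 0.00167).

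Around the members, the entry step and the red cell pyruvate kinase went the other way. Hk1, a hexokinase gene of the first step, fell in myeloid-like pairs, at 16.4, 1.19, 7.21, 44.6 and 17.7 CPM. Erythroid-like pairs were at 3.49, 414 and 1163 CPM (lowest, median and highest). The log2 fold change was -4.53 ± 0.87 (SE, edgeR adjusted p = 0.00290). Dex pair 12, at 3.49 CPM, was the 1 erythroid-like pair inside the myeloid-like range. Pklr fell too: all 5 myeloid-like pairs together held 4 counts (0.151 CPM pooled), against 11547 counts (119 CPM pooled) in the 18 erythroid-like pairs (adjusted p = 0.00340). The fitted log2 fold change depends on the prior count at such levels and is not given. In 3 erythroid-like pairs Pklr also held no more than 3 counts. Thus Pklr was lower in myeloid-like pairs and Pkm higher, but the call of Pkm was lost in 9 of 14 alternatives. Each of the 18 erythroid-like deeper pairs still held Pkm at 144.6 CPM or more. Outside the deeper pairs, NoDex pair 12 cell 1, with 4204860 counts and erythroid by its markers, held Pkm at 0.713 CPM. In the single library of Dex pair 1 cell 1 Pkm was at 6.62 CPM.

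**Figure D3:**
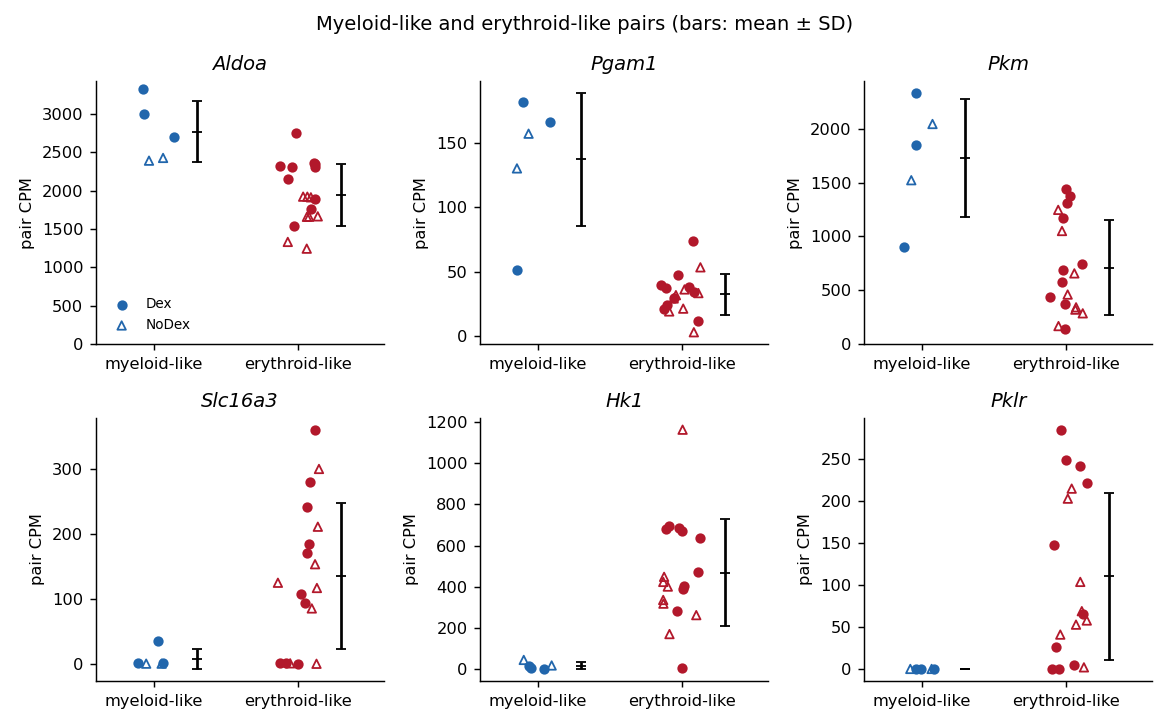
Pair CPM of 6 genes in the 5 myeloid-like pairs (left, blue) and 18 erythroid-like pairs (right, red), Dex as filled circles and NoDex as open triangles, with mean ± SD beside them. Pgam1 and Pkm of 4 of 5 myeloid-like pairs lie above all erythroid-like pairs, and Pklr is at most 0.397 CPM in the myeloid-like pairs.

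The wider pathway genes came from 4 lists chosen with earlier results known, and few of them passed the test between classes. Of 15 genes of other glycolysis steps 9 were tested and 1, Hk1, fell. The others with the highest levels were Gpi1, phosphoglucose isomerase (0.87 ± 0.28, SE, adjusted p = 0.0981), Pfkl, the liver-type phosphofructokinase (0.09 ± 0.56, 0.973), and Adpgk, an ADP-dependent glucokinase (0.58 ± 1.20, 0.891). Of 20 paralogues of the members 5 were tested and 1, Pklr, fell. Slc16a1, the other main lactate carrier, was at 64.9 ± 62.4 CPM in myeloid-like and 410 ± 250 CPM in erythroid-like pairs (SD, n = 5 and 18) but missed the threshold (log2 fold change -2.39 ± 0.78, SE, edgeR adjusted p = 0.107). The glucose transporter gene Slc2a3 was at -0.49 ± 1.32 (0.922) and the mitochondrial phosphatase gene Pgam5 at -3.34 ± 1.56 (0.254). Ldhb, the heart-type lactate dehydrogenase gene, named after its values were seen, reached 10 CPM in 3 of 46 libraries.

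Of 16 genes that handle pyruvate and lactate 12 were tested and 0 were called by edgeR. The highest were Bsg, whose protein escorts lactate carriers to the membrane (-0.11 ± 0.27, SE, adjusted p = 0.911), the pyruvate dehydrogenase genes Pdha1 (0.13 ± 0.55, 0.952) and Pdhb (-0.11 ± 0.39, 0.943), and Dld (0.73 ± 0.55, 0.592). Of the 9 pentose phosphate and bisphosphoglycerate genes 9 were tested and 0 called, with Taldo1 at -0.09 ± 0.29 (0.936), Tkt at 0.03 ± 0.31 (0.981), G6pdx at -0.04 ± 0.74 (0.991) and Pgd at 0.21 ± 0.51 (0.912).

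Sister cells shared Slc16a3. Among 23 deeper pairs both daughters reached 10 CPM in 12, neither did in 9, and 1 of 2 did in 2. In Dex pairs the daughters of pair 8 were at 0.434 and 0.432 CPM and those of pair 4 at 82.0 and 139 CPM. In NoDex pairs those of pair 11 were at 0 and 0 CPM and those of pair 5 at 267 and 353 CPM. The exceptions were Dex pair 6 (97.4 and 0.431 CPM) and Dex pair 12 (0 and 422 CPM). Daughters differed by 1.45 ± 2.04 on the log2(CPM + 1) scale (mean ± SD, n = 23 pairs), against a mean of 3.96 between cells of different founders of 1 treatment. The F test over pair terms in edgeR called it (adjusted p = 0.00119), and it was called under all 34 alternatives, at adjusted p of at most 0.0422.

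Slc16a3 moved with the plate column, as read from the labels, and with class. Both daughters reached 10 CPM in 10 of 14 pairs in columns 1 to 4 and in 2 of 9 pairs in columns 5 to 7, and in 0 of 5 myeloid-like against 12 of 18 erythroid-like pairs. Among erythroid-like pairs the counts were 10 of 12 in columns 1 to 4 and 2 of 6 in columns 5 to 7. Sisters sit in the same column, so a column effect would also make them alike. Between founders within a plate column the gene was still called, at adjusted p = 0.0422, where 1.16% of 8015 genes were called. In erythroid-like pairs alone it was called at adjusted p = 0.00197 in edgeR and 0.00461 in limma, which called 2.12% and 4.85% of 7466 genes, with a mean daughter difference of 1.38 ± 1.98 (SD, n = 18 pairs), against 3.75 between founders.

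Ldha and Pkm were also called over all 23 pairs, at adjusted p = 0.00295 and 0.00183 in edgeR, which makes 3 of 10 members against 3.38% of the 8015 genes tested. The daughters of Dex pair 12 were unlike each other, at 10585 and 1540 CPM for Ldha and at 8394 and 247 CPM for Pkm. Without that pair the call of Ldha was lost in edgeR (adjusted p = 0.646) and Pkm lay just past the threshold (0.0534), where 1.81% of 8001 genes were called. In limma, which called 8.12% of 8015 genes, the 2 were at 0.790 and 0.0889 with the pair, and without it, where limma called 7.55%, Pkm was called (0.0219) and Ldha was not (0.366). Slc16a3 was called without the pair by both tools, at 0.00132 in edgeR and 8.04e-06 in limma. Without Dex pair 12 the daughters of a pair differed by 0.38 ± 0.39 for Ldha (log2(CPM + 1) scale, SD, n = 22 pairs), against 0.44 between founders, and by 0.97 ± 1.14 for Pkm, against 1.61.

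For the glucose transporter gene Slc2a1, also present or absent, no likeness of sister cells was detected. Exactly 1 of 2 daughters reached 10 CPM in 11 of 23 pairs, both did in 5 and neither in 7. In Dex pair 8 the daughters were at 0.434 and 500.3 CPM, in Dex pair 10 at 1.22 and 448 CPM and in NoDex pair 8 at 0 and 363 CPM. The mean daughter difference was 3.68 ± 3.28 (SD, n = 23 pairs), against 3.98 between founders, and the pair terms were not called (edgeR adjusted p = 0.347). Whether the daughter likeness of the 2 transporters differs was not tested. Among the other enzymes Pgam1 was at adjusted p = 0.0616 in limma, 0.0488 without Dex pair 12, and 0.313 in edgeR. Pgk1 was at 0.120 in limma and was called there without NoDex pair 8 (0.0202). Aldoa (0.325), Pgk1 (0.395), Eno1 (0.519), Gapdh (0.828) and Tpi1 (1.00) were not called in edgeR. Tpi1 was at 1008 and 10.7 CPM in the daughters of NoDex pair 9. Of the wider lists Hk1 (adjusted p = 0.0463) and Pklr (0.0149) were called between founders, but neither was in erythroid-like pairs alone (0.311 and 0.317).

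**Figure D4:**
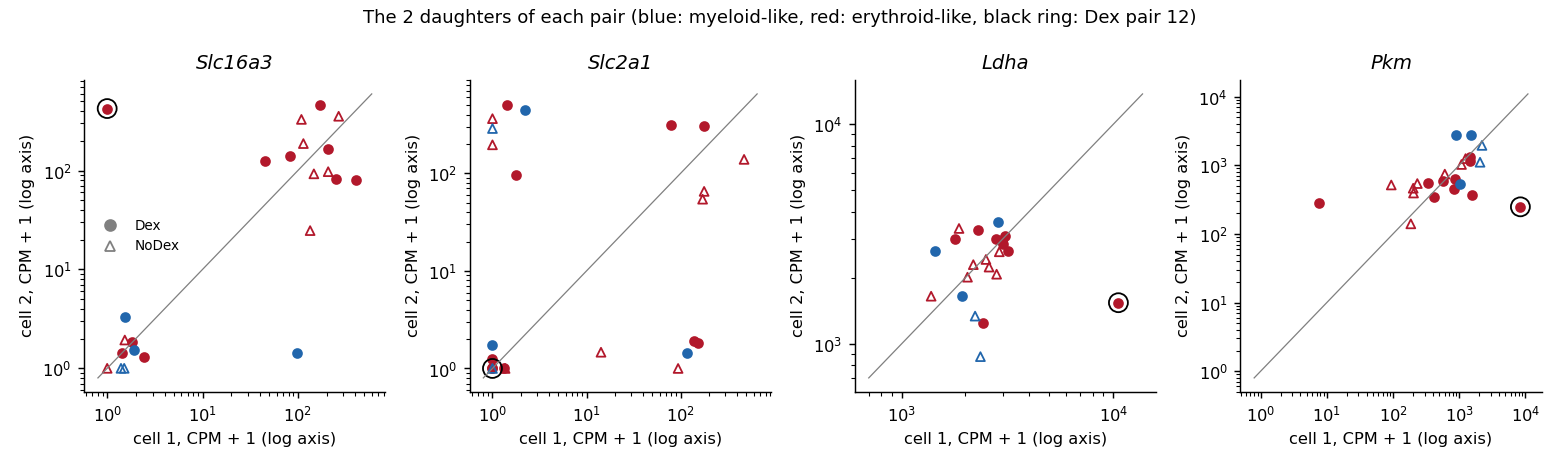
CPM + 1 of cell 1 (x axis) and cell 2 (y axis) of each deeper pair on log axes, Dex as filled circles and NoDex as open triangles, myeloid-like in blue and erythroid-like in red, with a ring on Dex pair 12 and the diagonal where both cells are equal. Slc16a3 lies in 2 clusters along the diagonal with 2 exceptions, Slc2a1 has 11 pairs with 1 daughter at 10 CPM or more, and Dex pair 12 is far from the diagonal for Ldha and Pkm.

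**Figure D5:**
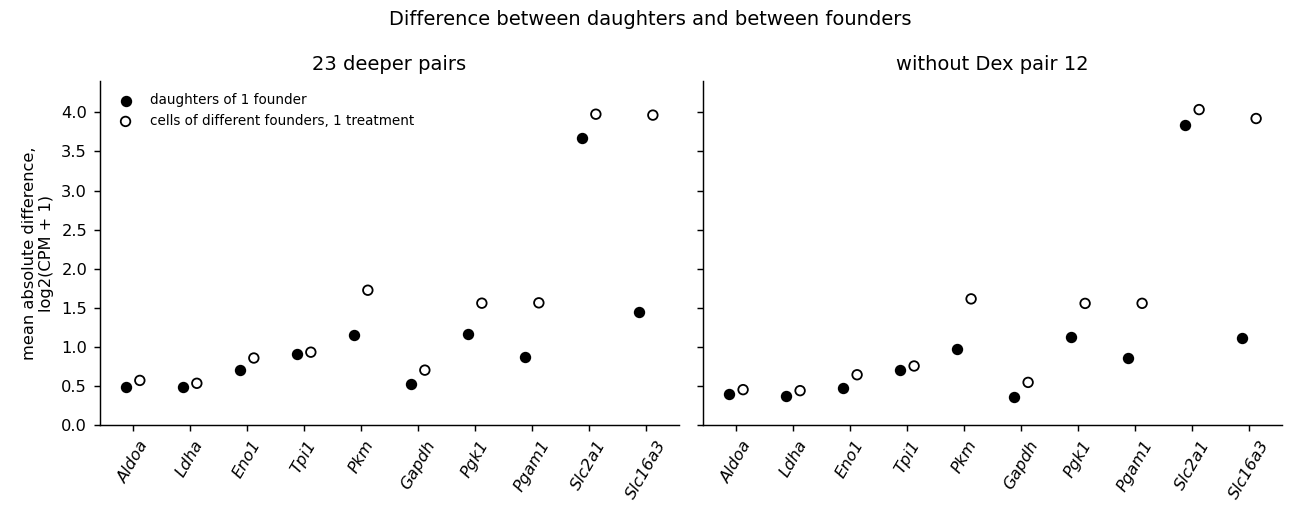
Mean absolute difference on the log2(CPM + 1) scale between daughters of 1 founder (filled) and between cells of different founders of 1 treatment (open), for all 23 deeper pairs and without Dex pair 12. For Slc16a3 the means are 1.45 and 3.96 with that pair, and for Slc2a1 3.68 and 3.98.

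No effect of Dex on how far daughters differed was detected. For Slc16a3 the mean absolute difference was 1.93 ± 2.58 in Dex pairs and 0.83 ± 0.71 in NoDex pairs (SD, n = 13 and 10), and the difference of 1.09 had a permutation p of 0.256 (two-sided, 100000 resamples; 1.00 adjusted). For Pkm it was 1.44 ± 1.73 and 0.77 ± 0.75 (permutation p = 0.294, 1.00 adjusted). The other 8 members had permutation p of 0.524 or more. Without Dex pair 12 the Dex means were 1.36 ± 1.65 for Slc16a3 and 1.14 ± 1.403 for Pkm (SD, n = 12), the differences were 0.53 and 0.37 (permutation p = 0.432 and 0.538), and those of Ldha, Eno1 and Gapdh turned negative, with permutation p of 0.173 or more for all 10 members. Across all genes the permutation test called 0 of 8015 (0%), with 347 at an unadjusted p under 0.05, and 0 of 8001 without that pair, with 362.

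By the mean of the 10 members, each centred and scaled over the 23 deeper pairs, the most similar genes among 1650 were Pebp1, a kinase inhibitor gene (Pearson r = 0.78), Tbca, a tubulin cofactor gene (0.69), Hmga1, a chromatin protein gene (0.68), Nme2, a nucleoside diphosphate kinase gene (0.68), and Atp6v1f, a proton pump subunit gene (0.67). The points share libraries and depth, so these values are a description over 23 pairs. Among the members themselves Aldoa and Eno1 had the highest r, at 0.67, and Ldha and Eno1 the lowest, at -0.40.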

How the data were processed

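The authors deposited whole-number read counts per gene, 1 table per treatment, unnormalized. Per the submitters' processing notes STAR 2.4, featureCounts and GRCm38 were used. The sources used here do not state strand or shared-read settings, so overlapping or antisense genes may share reads. The labels mention no molecular identifiers, and read counts are not counts of molecules. The members, lists, markers and alternatives were chosen with earlier results of these data known. All 10 members are named, and up to 4 genes of each wider list (called by class, then between founders, then highest CPM).

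Treatment and class were compared on counts summed per pair, sister cells on single libraries, with edgeR 4.0.16 in R 4.3.3 (TMM, glmQLFit and glmQLFTest, SE as the log2 fold change over the root of F). Treatment was a covariate for class, and founders were terms within treatment. filterByExpr (minimum count 10, total 15) filtered pairs, and at least 5 counts in 10 libraries filtered single libraries. Benjamini-Hochberg adjustment covered all genes tested, and 0.05 was the threshold. The class markers hold no member. DESeq2 1.42.0 and limma 3.58.1 were alternatives, with other size factors, filters, plate columns and left-out pairs. Near-identical copies had 90% identity over 300 bases (BLAST 2.17.0). Only edgeR with TMM was run on simulated data, for treatment, for class without the treatment covariate, and for sister cells. The alternatives and the permutation test were not. With 5 myeloid-like pairs precision is low.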

Additional observations from a re-analysis of the deposited data

Results flagged for a closer look

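Within groups of 4 to 10 pairs, 5 of 40 gene and group combinations had a pair far from the rest. The nominal number by chance is about 2, but the groups share pairs, so the 5 cannot be read as an excess. Pgk1 in NoDex pair 1 was at 1.01 CPM, with the next lowest NoDex pair at 79.4 CPM. Both of its daughters were low, at 0.795 and 1.4 CPM. The same pair also stood apart among the 8 erythroid-like NoDex pairs. Pgam1 was at 51.4 CPM in Dex pair 7, with the next lowest myeloid-like pair at 130 CPM. Slc16a3 was at 34.8 CPM in Dex pair 6, with the next highest myeloid-like pair at 0.992 CPM. Pgam1 was at 2.81 CPM in NoDex pair 11, with the next lowest erythroid-like NoDex pair at 19 CPM.

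In a library outside the deeper pairs, used only where all pairs entered, NoDex pair 12 cell 2 with 11791 counts, Tpi1 was at 13994 CPM (165 counts) and Aldoa at 6446 CPM (76 counts). The highest NoDex libraries of the deeper pairs held 1182 CPM of Tpi1 and 3130 CPM of Aldoa. The part of depth in these values was not tested.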

How the results depend on the processing

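For the treatment comparison 34 alternatives called 0 genes each, and the members' median log2 fold change ran from 0.13 to 0.47. Pair numbers do not pair samples: deviations of same-numbered pairs correlated at -0.13 to 0.20. With the pair number as a replicate block the members' median was 0.32 and 0 genes were called. Leaving out 1 pair gave 0.13 to 0.32.

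For class, 1 member was called by limma (Pgam1). Genes called numbered 1250 with DESeq2, 577 with limma and 739 without a filter; 180 to 918 were called with 1 pair left out, the highest by limma, and 2 or 3 members. Log2 fold changes of all genes had a median of -0.64 in limma and -0.01 in edgeR. Slc2a1, never called, turned to -1.07 in limma, to -0.82 without Dex pair 10, to -0.36 without NoDex pair 9 and to -1.29 in limma without Dex pair 12, where Tpi1 was at -0.087 (with 1 pair left out Slc2a1 ran from -1.29 to 0.50); the cause was not tested.

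For sister cells, 1 member (Slc16a3) was called by limma, in limma on erythroid-like pairs, within plate columns, by edgeR without Dex pair 12, and in erythroid-like pairs without it by either tool; limma on all classes without it called 3 (Slc16a3, Pkm and Pgam1). Genes called were 651 in limma, 158 in erythroid-like pairs, 93 within plate columns, 34 in erythroid-like pairs without Dex pair 12, and 604 in limma without that pair. With 1 pair left out 145 to 686 genes and 1 to 3 members were called, the lowest by edgeR without Dex pair 12 and in limma 508 to 686. Settings without Dex pair 12, the left-out pairs for sister cells and limma on erythroid-like pairs were chosen after seeing the data.

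In CPM totals without adult globin and mitochondrially encoded genes the mean levels of the members moved by less than the SD between pairs. Where Slc2a1, Slc16a3 or Pklr held few counts or none in a pair, low levels cannot be told apart.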
